A study of Mus musculus with 3 samples.

Results

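The mitochondrial respiratory chain genes described here are the nuclear genes of complexes I to V and of cytochrome c on a mouse expression array. Members were taken by name: gene names starting with Nduf, Uqcr or Atp5, those from Cox4 to Cox8, and Sdha, Sdhb, Sdhc, Sdhd, Cyc1 and Cycs, with pseudogenes left out. Of 34827 gene names on the array 94 met this rule. Of these, 90 were measured, which means that the probe was well above background, on all 3 arrays. The other 4 (Cox7b2, Cox8b, Cox8c and Ndufa4l2) were above background on none. The rule itself uses names and no measured value.

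The respiratory chain passes electrons from NADH through complex I, and from succinate through complex II, to ubiquinone. Complex III and cytochrome c carry them on to complex IV, which reduces oxygen, and complex V, the ATP synthase, uses the resulting proton gradient to make ATP. Most subunits are encoded in the nucleus, a few in mitochondrial DNA, and assembly factors join them without staying in the finished enzyme. Several complex IV subunits exist as a ubiquitous isoform and a second isoform known from heart and muscle, lung or testis.

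The cells were HoxA9-Meis1 AML cells, a murine acute myeloid leukaemia of C57Bl/6 origin that takes its name from the homeobox genes Hoxa9 and Meis1, isolated from bone marrow and kept in SFEM medium, a serum-free medium for blood cells. They were left untreated, given Pyrydopyrazine A2 at 3.4 µM, or given all-trans retinoic acid (RA) with 1α-hydroxy vitamin D3 (D3V) at 10 µM each, all for 24 h. One Agilent array of 1 colour was run per condition, and the study set each treatment's expression signature against that of untreated cells. Whether the cells are 1 clone or a pool is not stated in the labels. With 1 array per condition there is no replicate check, and every difference below describes 1 pair of arrays.

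Which treated array carries which treatment is uncertain. The scanner file labelled A2 has the ranks of the value-table column labelled RA+D3V, and the reverse holds for the other pair (Spearman 1 for each). The arrays are called by their scanner files' labels throughout, so a value of the A2 array is not necessarily that of the compound A2. The value table also holds a control column that matches no scanner file (Spearman 0.936 with the untreated one). It served as a second source of untreated values.

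Between 46.0% and 46.8% of 59305 spots were well above background, and no spot was saturated. The median SD between replicate spots of a probe was 0.0606 to 0.0703 (log2). Between the control sources the members differed with an SD of 0.108 (90 genes, from -0.25 for Ndufa2 to 0.33 for Ndufa10) and all genes with an SD of 0.271 (17017 genes). For this the scanner values were quantile-normalized, and the median gap over all genes (-0.08) was removed. No member, but 4.41% of all genes, then lay at least 1.5-fold apart between the control sources. Of 10 markers of myeloid progenitor and leukaemia cells 9 were above background on all arrays. Meis1, for which the cells are named, was not well above background on any of the 3. The summed signal of these markers was 1406 times the 75th percentile on the untreated array, 1025 on the RA+D3V array and 737 on the A2 array. Bright Mpo (-1.57 and -2.22) weighs most in this sum, while 6 of the 9 measured markers were higher on the RA+D3V array and 4 of 9 on the A2 array, among them Itgam (2.31 and 2.37), Kit (0.42 and 1.70) and Hoxa9 (0.38 and 1.19). Across the arrays, T and NK cell markers summed to between 11.7 and 17.6 (4 of 6 above background on all arrays), B cell markers to between 12.2 and 18.6 (3 of 4) and erythroid markers to between 0.554 and 0.969 (2 of 6). Bright Nkg7 (-0.56 and 0.22) weighs most in the T and NK sum, and Cd79b (-0.64 and -0.04) in the B cell sum. Cd3d (-1.55 and -1.86), Cd2 (-1.89 and -1.81) and Cd3e (-0.23 and -0.25) were lower on both treated arrays, which the T and NK sum hardly shows. Sums of different lists rest on different probes and are not set against each other. Megakaryocyte markers went from 0.504 to 21.8 and 16.4 (1 of 4, with Itga2b and Gp9 at background on all arrays), and of 4 stroma markers none was above background on all arrays. The part of these shifts in the values below was not tested, and in bulk RNA fewer cells of a type and less RNA per cell cannot be told apart.

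A level is the log2 signal relative to the array's 75th percentile, a difference is a level on a treated array minus the level on the untreated array, and a gene is called higher or lower from 1.5-fold (0.58 on the log2 scale). Levels of different genes come from different probes and are not compared. For the 5 genes with the largest differences among the members, the first 30 of the 60 bases of the probe read are given 5′ to 3′ as the array file has them, since the values given for the gene are those of this probe unless another is named.
Cox7a1: acaacgtcctgtacagactgaccatgacgc
Cox6b2: ggaactttcccgggcaaaatatgaccttgc
Cox6a2: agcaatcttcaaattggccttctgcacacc
Ndufv3: ggtagaccccgatgttggttcccatgaatc
Ndufaf4: atacaagttcctgtgagttgagggccataa
The file places these probes, on genome build mm9, at chr7:30970337-30970948 (Cox7a1), chr7:4703488-4703547 (Cox6b2), chr7:135349160-135349219 (Cox6a2), chr17:31668209-31668268 (Ndufv3) and chr4:24829194-24829253 (Ndufaf4). The Cox7a1 probe covers 612 bases of the genome with its 60 bases, so it spans a splice junction. The other 4 lie within an unbroken stretch of 60 bases. Exons and untranslated regions are not given, since the annotation used here is of a later build.

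Most members lay close to their untreated level on both treated arrays. A few isoforms, some assembly factors and the subunit Ndufv3 passed 1.5-fold on at least 1 of them. On the RA+D3V array 4 of 90 members were called higher (Cox7a1, Cox6b2, Ndufv3 and Cox4i2), against 17.7% of 17292 genes measured on both arrays. Called lower were 2 (Cox6a2 and Ndufaf4), against 15.5%. On the A2 array 2 members were called higher (Cox7a1 and Ndufv3), against 17.2% of all genes, and 5 lower (Cox6b2, Ndufaf4, Ndufaf7, Cox6a2 and Ndufaf6), against 17.0%. In either direction this was 6.67% of the members beside 33.1% of all genes on the RA+D3V array, and 7.78% beside 34.2% on the A2 array. Among genes with a brighter signal, as most members have, the shares were 25.6% and 29.8%. From 2-fold up, 3 members were higher and 1 lower on the RA+D3V array (7.82% and 5.04% of all genes, 12.9% together), and 2 higher and 2 lower on the A2 array (7.92% and 6.47%, 14.4% together). Every one of the 13 calls from 1.5-fold was also made against the value table's control.

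The median difference of the members was 0.07 on the RA+D3V array and 0.08 on the A2 array, beside -0.03 and -0.03 over all genes. It changed sign to -0.04 and -0.03 with the value table and its control, and to -0.01 on the RA+D3V array with another background correction, so no shared direction of the members is given. The spread of the members was narrow, with SDs of 0.36 and 0.52. Over all genes the SDs were 0.72 and 0.83, and over genes with a brighter signal 0.60 and 0.71. The SD was smaller still over the 75 structural subunits that are no tissue isoforms, at 0.24 and 0.27. Of these 75, Ndufv3 alone was called on either array. The next highest were Ndufs5 (0.50) on the RA+D3V array and Ndufa13 (0.51) on the A2 array, and the lowest were Ndufa10 (-0.39) and Atp5b (-0.50).

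**Figure D1:**
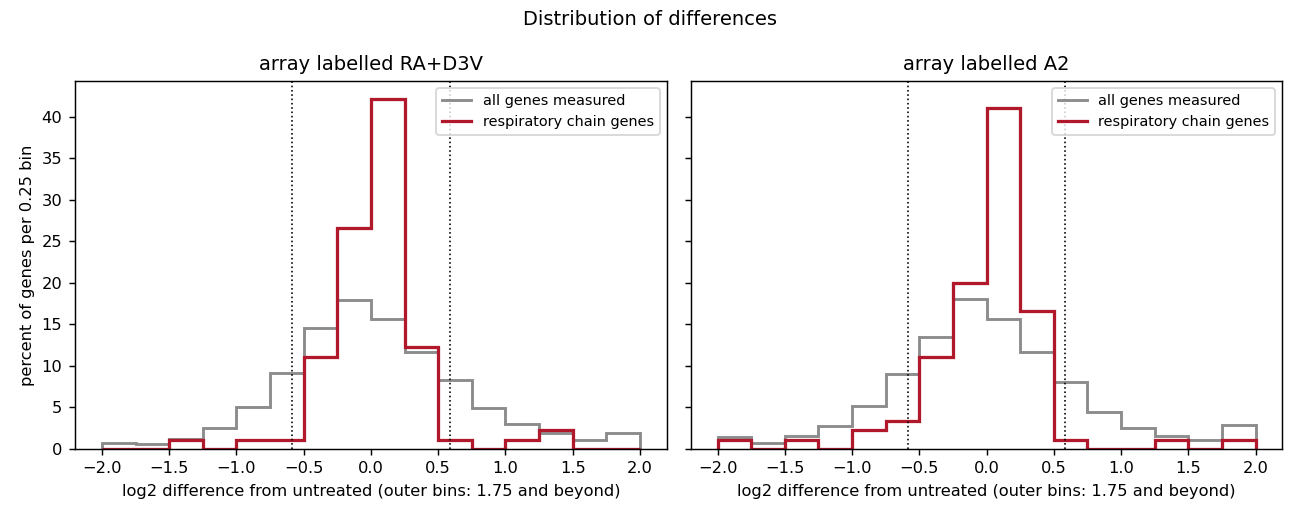
Share of genes, in percent, per 0.25-wide bin of the log2 difference from the untreated array, for all genes measured (grey) and for the respiratory chain genes (red), with the outer bins holding all larger values and dotted lines at 1.5-fold. The 2 bins on either side of 0 hold 26.7% and 42.2% of the members on the array labelled RA+D3V, and the red outline is narrower than the grey one on both arrays.

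Complex I takes electrons from NADH. Its 7 nuclear core subunits, which hold the flavin and the iron-sulphur clusters, reached at most 0.10 (Ndufs7) on the RA+D3V array and lay between -0.27 (Ndufv1) and 0.21 (Ndufs3) on the A2 array. Their medians were -0.13 and -0.04, the second of which turned to 0.04 with the mean of all probes. No core subunit was called on either array.

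The 29 accessory subunits, which surround the core, had medians of 0.11 and 0.12. On the RA+D3V array 23 were above their untreated level and on the A2 array 21. With the value table and its control, however, the medians were only 0.003 and -0.01. Ndufa13, also known as GRIM-19, had levels of 7.58 on the untreated array, 8.07 on the RA+D3V array and 8.10 on the A2 array. Ndufs5, an intermembrane-space subunit, had levels of 5.94, 6.44 and 6.31 in the same order. Both were thus higher on both treated arrays, by 1.30-fold to 1.43-fold, under the call threshold. Against the value table's control Ndufa13 differed by 0.31 and 0.30, and Ndufs5 by only 0.21 and 0.07. Ndufa10 was the lowest of the group, at 4.30, 3.92 and 4.03. Its differences of -0.39 and -0.27 rest on the untreated array, since they were -0.04 and 0.01 against the value table's control.

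Ndufv3, a small accessory subunit of the NADH-oxidising module whose transcript is known to be spliced into a short and a long form, stood apart. Its level was 6.92 on the untreated array, 7.96 on the RA+D3V array and 8.38 on the A2 array. That is 2.05-fold and 2.74-fold higher, and against the value table's control the differences were 0.88 and 1.27. The other probes of the gene gave smaller differences, of 0.28 and 0.44 on the RA+D3V array and of 0.96 and 1.08 on the A2 array. The file lists 2 RefSeq transcripts for the brightest probe, 1 of them for the second probe, and none for the third. All 3 probes were higher on both arrays, the RA+D3V call rests on the brightest alone, and with the mean of the probes the RA+D3V difference was 0.59.

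The 7 complex I assembly factors among the members were the group with the lowest medians, -0.43 on the RA+D3V array and -0.57 on the A2 array. These medians kept their sign in all 10 settings, between -0.46 and -0.38 and between -0.76 and -0.56. On the RA+D3V array 7 of 7 were below their untreated level, 1 of them past 1.5-fold. On the A2 array 6 of 7 were below it, 3 past 1.5-fold. Of all genes 15.5% and 17.0% were called lower, and 48.2% and 47.8% lay above their untreated level. Ndufaf3 differed by -0.04 and 0.02, and by 0.26 and 0.24 against the value table's control.

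Ndufaf4, an early assembly factor that binds Ndufaf3, had levels of 4.02 on the untreated array, 3.21 on the RA+D3V array and 2.54 on the A2 array, which is 1.76-fold and 2.80-fold lower. Its second probe differed by -1.41 and -1.74. Both probes were lower on both arrays, and over the settings the gene's difference ran from -1.11 to -0.76 and from -1.61 to -1.47. Ndufaf7, a mitochondrial methyltransferase, had levels of 3.82, 3.39 and 2.84. Ndufaf6, which is needed for early assembly, had levels of 2.02, 1.53 and 1.38. It was 1.56-fold lower on the A2 array, a call that was lost in 1 of 10 settings. Ndufaf1, a factor of the membrane arm, differed by -0.50 and -0.57. Ndufaf5, which modifies Ndufs7, differed by -0.22 and -0.54, and Ndufaf2, a paralogue of the subunit Ndufa12, by -0.25 and -0.49. Against the value table's control Ndufaf1 differed by -0.64 and -0.76, Ndufaf6 by -0.59 and -0.80 and Ndufaf2 by -0.33 and -0.68. All of these but the Ndufaf2 value on the RA+D3V array are past 1.5-fold.

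**Figure D2:**
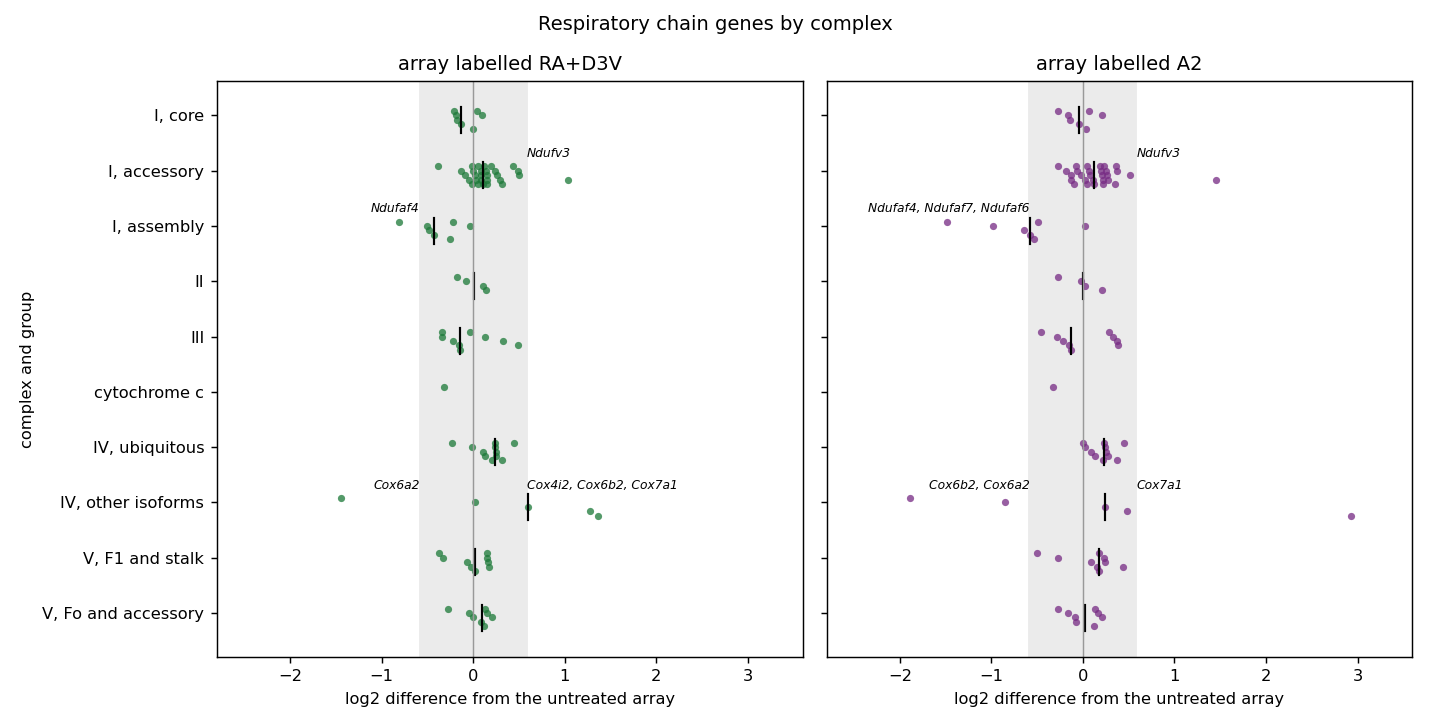
Log2 difference from the untreated array of each measured respiratory chain gene (1 point a gene, spread vertically for view), by complex and group, with black lines at group medians and grey bands within 1.5-fold. Genes outside the band are named from left to right above their row. They lie among the complex I assembly factors and the second isoforms of complex IV, with Ndufv3 as the one structural subunit.

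Complex II, succinate dehydrogenase, differed little. The flavoprotein Sdha had levels of 4.90 on the untreated array, 4.72 on the RA+D3V array and 4.92 on the A2 array. The iron-sulphur subunit Sdhb had 6.57, 6.71 and 6.55, the membrane anchor Sdhc 4.95, 5.05 and 5.15, and the anchor Sdhd 6.48, 6.40 and 6.21. The largest of the 8 differences was that of Sdhd on the A2 array, -0.27, which was -0.23 against the value table's control. The SD between control sources was 0.108 over the members and 0.271 over all genes.

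Complex III passes electrons from ubiquinol to cytochrome c. Its 9 members had medians of -0.14 and -0.13, negative in all 10 settings for each array, but they did not lie together. The Rieske iron-sulphur protein Uqcrfs1 (-0.34 and -0.28), the core proteins Uqcrc2 (-0.34 and -0.45) and Uqcrc1 (-0.16 and -0.13) and cytochrome c1, Cyc1 (-0.22 and -0.22), were below their untreated level on both arrays. Of the small subunits, Uqcr11 (0.49 and 0.37) and Uqcrh, the hinge protein (0.33 and 0.38), were above their untreated level. Uqcrb (0.13 and 0.33) was above it as well, Uqcr10 (-0.14 and -0.15) below it and Uqcrq (-0.03 and 0.29) on both sides. Against the value table's control Uqcr11 differed by 0.30 and 0.18, Uqcrh by 0.02 and 0.16 and Uqcr10 by -0.24 and -0.33. With that control Uqcrq differed by -0.19 and 0.10, and Uqcrb changed sign, to -0.18 and -0.02. Uqcrc2 had levels of 5.53, 5.19 and 5.08 in the order untreated, RA+D3V and A2, and Cyc1 had 5.62, 5.40 and 5.40. No member of complex III was called.

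Cytochrome c, Cycs, the carrier between complexes III and IV, had levels of 7.07, 6.75 and 6.75. It was 1.25-fold lower on each treated array. Its other measured probe was lower as well, by -0.76 and -0.58, and the third was not above background.

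The 11 ubiquitous subunits of complex IV, cytochrome c oxidase, had medians of 0.24 and 0.23. These were positive in all 10 settings on each array, between 0.09 and 0.27 and between 0.05 and 0.25. On the RA+D3V array 9 of 11 were above their untreated level and on the A2 array 10 of 11. The highest was Cox5a, at levels of 7.91 on the untreated array, 8.35 on the RA+D3V array and 8.36 on the A2 array. The largest nuclear subunit, Cox4i1, had levels of 7.81, 8.06 and 8.05. Cox5b was the one subunit below its untreated level on both arrays, by -0.23 on the RA+D3V array and by less than 0.01 on the A2 array. None was called, and Ndufa4, a protein first counted to complex I and now to complex IV, differed by 0.25 and 0.22.

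The second isoforms of complex IV subunits held the largest differences of all members, in opposite directions. Cox7a1, the heart and muscle isoform of subunit 7a, had a level of 1.41 on the untreated array, 2.77 on the RA+D3V array and 4.33 on the A2 array, which is 2.58-fold and 7.60-fold higher. Its ubiquitous partner Cox7a2 had levels of 6.33, 6.54 and 6.46. So Cox7a1 was higher on both treated arrays while Cox7a2 differed by 0.21 and 0.13. Cox7a2l, a related protein, differed by 0.02 and 0.24.

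Cox6b2, the testis isoform of subunit 6b, was higher on one treated array and lower on the other. Its levels were 2.06 on the untreated array, 3.34 on the RA+D3V array and 0.17 on the A2 array. This is 2.43-fold higher and 3.70-fold lower than untreated, and both differences kept their call in every setting that measured the gene. The ubiquitous Cox6b1 had levels of 4.09, 4.33 and 4.34.

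Cox6a2, the heart and muscle isoform of subunit 6a, had levels of 0.30, -1.15 and -0.55, which is 2.73-fold and 1.81-fold lower. Its partner Cox6a1 had 8.94, 8.92 and 9.02. Cox4i2, the lung isoform of subunit 4, had levels of 0.13, 0.73 and 0.61. Its difference of 0.60 on the RA+D3V array was just past the threshold, which it missed in 1 of 9 settings, and that of 0.48 on the A2 array just under it. With 1 probe each, none of the isoforms Cox7a1, Cox6b2, Cox6a2 and Cox4i2 has a second probe to set beside it. The other isoforms known from heart and muscle or from testis, Cox8b, Cox7b2 and Cox8c, and Ndufa4l2, a relative of Ndufa4 known as a target of the hypoxia-inducible factor HIF-1, were at background on all arrays.

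**Figure D3:**
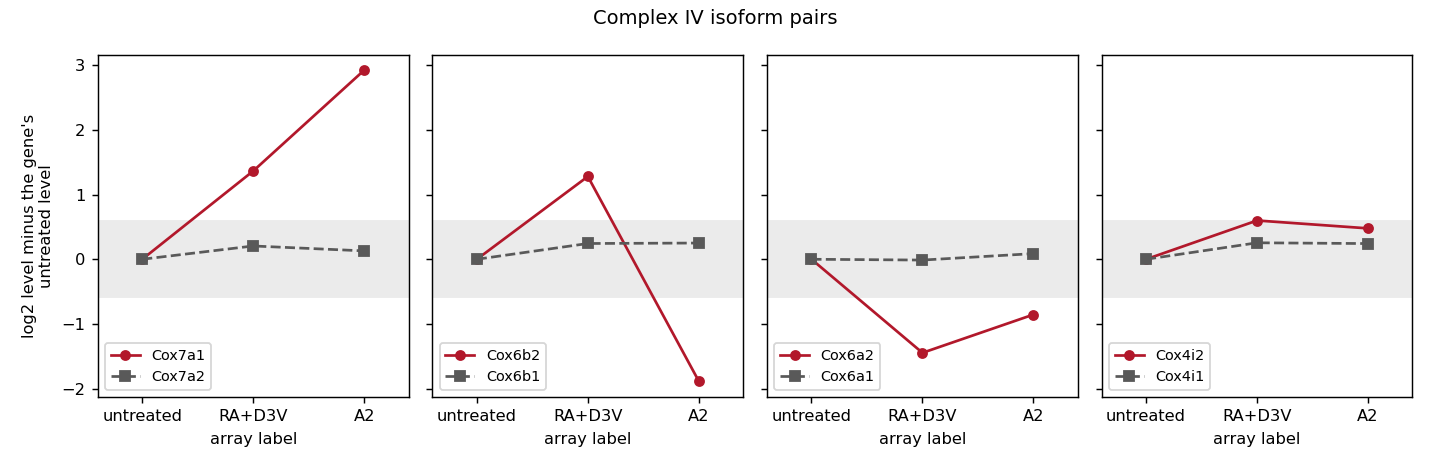
Log2 level minus the gene's own level on the untreated array for 4 pairs of complex IV isoforms (red: second isoform, grey: ubiquitous isoform) on the untreated, RA+D3V and A2 arrays, 1 array each, with the band within 1.5-fold in grey. The ubiquitous isoforms stay between -0.01 and 0.25, while Cox7a1 reaches 2.93 and Cox6b2 lies at 1.28 and -1.89.

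In complex V the catalytic β subunit Atp5b had levels of 8.53, 8.15 and 8.03 and the α subunit Atp5a1 had 7.36, 7.04 and 7.09 on the untreated, RA+D3V and A2 arrays. Both were lower on both treated arrays in all 10 settings, Atp5b by 1.30-fold and 1.41-fold. The other 7 F1 and stalk subunits lay between -0.07 and 0.17 (Atp5o, the stalk protein OSCP) on the RA+D3V array and between 0.09 and 0.43 on the A2 array, where Atp5j, coupling factor 6, was the highest at levels of 5.40, 5.56 and 5.83. Among the 8 Fo and accessory members the differences ran from -0.28 for Atp5g2, a gene of the c ring, to 0.20 for Atp5l on the RA+D3V array, and from -0.27 for Atp5g2 to 0.21 for Atp5j2 on the A2 array. The other c-ring genes, Atp5g1 and Atp5g3, differed by 0.15 and 0.13 on the RA+D3V array and by -0.07 and 0.13 on the A2 array. No member of complex V was called. The file places the brightest probe of Atp5k on chromosome Y of mm9 (0.12 and 0.12), another there as well (0.20 and 0.27), and the remaining one on chromosome 5 (0.19 and 0.23).

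Of 94 members 32 have more than 1 probe, and 30 have more than 1 measured probe. The probes of a gene lay a median of 0.0905 apart on the RA+D3V array and 0.128 on the A2 array. In 4 genes (Ndufab1, Ndufaf4, Ndufb11 and Ndufv3) they lay more than 0.5 apart. The 6 probes of Atp5l gave 0.12 to 0.21 on the RA+D3V array, and both probes of Uqcrh gave 0.33 and 0.31. In Ndufb11 the brighter probes differed by -0.02 and 0.04 and a dim one by -0.86 on the RA+D3V array. In Ndufab1, the mitochondrial acyl carrier protein, the probes differed in sign on the A2 array, -0.06 and 0.65. One probe of the members, that of Cox6c, holds a run of 8 alternating G and T bases, and such probes were left out in one of the alternatives. The run is given in capitals within bases 16 to 45 of the probe.
Cox6c: aaacatgaataTGTGTGTGctaaggaatag
Cox6c was not low on the treated arrays: it differed by 0.24 and 0.27.

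**Figure D4:**
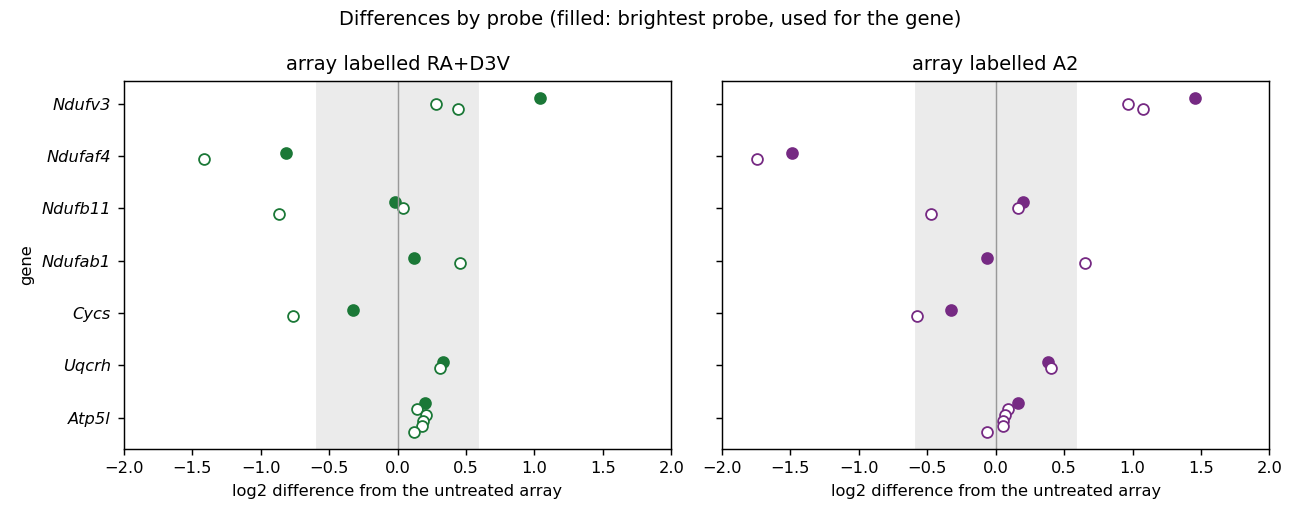
Log2 difference from the untreated array for each measured probe of 7 respiratory chain genes (filled: the brightest probe, which stands for the gene; open: the other probes), with the band within 1.5-fold in grey. The probes of Atp5l and Uqcrh lie close together, and those of Ndufv3, Ndufaf4, Ndufb11 and Ndufab1 lie more than 0.5 apart on at least 1 array.

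The treated arrays were close to each other over the structural subunits and far apart for a pair of isoforms. Between them 2 of 90 members were called higher on the A2 array (Cox7a1 and Cox6a2), against 8.89% of 17643 genes, and 2 lower (Cox6b2 and Ndufaf4), against 11.2%, or 4.44% of members beside 20.1% of all genes in either direction. From 2-fold up it was 1 each way (3.78% and 4.05% of all genes, 7.83% together). The SD over members was 0.42, between those of 0.36 and 0.52 against the untreated array. Of the 75 structural subunits none was called, and they lay between -0.22 (Atp5g1) and 0.42 (Ndufv3) with an SD of 0.14. The SD over all genes was 0.66, and over genes with a brighter signal it was 0.52. Cox6b2 was 8.99-fold lower on the A2 array than on the RA+D3V array (-3.17 on the log2 scale), and Cox7a1 was 2.95-fold higher (1.56). Ndufaf4 differed by -0.67, and its call was lost with the mean of its probes (-0.50). Cox6a2 differed by 0.59, a call kept in 6 of 8 settings. Ndufaf7 was just inside the threshold (-0.56). The complex I assembly factors had a median of -0.23 in this comparison, with 6 of 7 lower on the A2 array.

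Sequences at the gene starts were read because several regulators of respiratory genes bind near them. RefSeq promoter windows of GRCm38.p6, from 250 bases before to 50 after the start, were found for 77 of the members, and 5 motifs were searched on both strands. A 10-base NRF1 motif, whose letters are the capitals in the sequences that follow, was in the window of 7 members (9.09%), beside 1.47% of 17492 protein-coding genes, and the YY1 motif AAGATGGC in that of 11 (14.3%, beside 3.57%). The motif CCGGAAGT of ETS factors such as Gabpa was in 5 (6.49%, beside 5.69%), the motif TCAAGGTCA of oestrogen-related receptors in 2 (2.60%, beside 0.377%), and the hypoxia response core ACGTG in 21 (27.3%, beside 23.2%). ACGTG is short and found often. The match is a description of these letters and was not tested against the differences.

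The 7 NRF1 matches are shown with the motif in capitals, as 30-base stretches read 5′ to 3′ on the strand of the gene, since NRF1 is a known activator of respiratory chain genes.
Atp5g2: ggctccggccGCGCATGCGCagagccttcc
Atp5k: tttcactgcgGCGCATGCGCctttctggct
Cox6a1: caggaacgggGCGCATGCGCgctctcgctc
Ndufa11: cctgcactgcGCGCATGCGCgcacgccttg
Ndufaf4: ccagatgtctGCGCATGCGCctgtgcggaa
Ndufaf5: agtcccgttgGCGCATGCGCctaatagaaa
Uqcrc1: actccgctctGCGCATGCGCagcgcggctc
The motif begins 42 bases before the start in Atp5g2 (chr15:102671070-102671099, minus strand), 50 in Atp5k (chr5:108434430-108434459, minus strand), 162 in Cox6a1 (chr5:115349101-115349130, minus strand), 60 in Ndufa11 (chr17:56717692-56717721, plus strand) and 113 in Ndufaf4 (chr4:24897960-24897989, plus strand). In Ndufaf5 (chr2:140170652-140170681, plus strand) and Uqcrc1 (chr9:108936668-108936697, plus strand) it lies after the start. The differences of these genes were -0.28 and -0.27 for Atp5g2, 0.12 and 0.12 for Atp5k, -0.01 and 0.09 for Cox6a1, 0.02 and 0.07 for Ndufa11, -0.81 and -1.48 for Ndufaf4, -0.22 and -0.54 for Ndufaf5 and -0.16 and -0.13 for Uqcrc1. They thus run from well below to just above the untreated level.

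Of the 11 genes with a YY1 match, 9 have one just after the start, as in Ndufs6 (chr13:73328433-73328462, minus strand) and Ndufa3 (chr7:3617384-3617413, plus strand), shown with the motif in capitals.
Ndufs6: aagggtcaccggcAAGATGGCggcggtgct
Ndufa3: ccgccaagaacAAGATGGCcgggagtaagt
Ndufs6 differed by 0.15 and 0.23 and Ndufa3 by 0.32 and 0.37.

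The 250 bases before the start are given for Cox7a1 (chr7:30183921-30184170, plus strand) and Ndufaf4 (chr4:24897833-24898082, plus strand), the member highest and one of those lowest on both treated arrays, with the NRF1 motif in capitals.
Cox7a1: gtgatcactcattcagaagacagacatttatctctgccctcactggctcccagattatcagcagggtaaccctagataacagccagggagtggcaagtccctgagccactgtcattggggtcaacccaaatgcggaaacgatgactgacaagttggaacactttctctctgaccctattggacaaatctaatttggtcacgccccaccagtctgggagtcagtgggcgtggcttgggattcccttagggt
Ndufaf4: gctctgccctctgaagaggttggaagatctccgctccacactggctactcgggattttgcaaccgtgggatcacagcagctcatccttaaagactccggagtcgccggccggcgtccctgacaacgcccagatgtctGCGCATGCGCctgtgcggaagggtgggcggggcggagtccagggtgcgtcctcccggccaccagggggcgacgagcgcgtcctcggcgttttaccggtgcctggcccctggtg
In these bases of Cox7a1 none of the 5 motifs is found, and 1 ACGTG lies in the rest of its window.

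The partners of the chain outside the rule were read from lists. The subunits encoded in mitochondrial DNA, 13 of 13 measured, had medians of 0.31 and 0.15, positive in all 10 settings. On the RA+D3V array 3 of them were called higher (ND6 1.48, ND4L 1.23 and ATP8 0.79) and none lower, and on the A2 array 1 was higher (ND6 1.26) and none lower, beside 17.7% and 17.2% of all genes called higher. The lowest were ND4 on the RA+D3V array (-0.01) and ND2 on the A2 array (-0.27). These values are uncertain. The control sources lay up to 0.86 apart for them (COX1), more than for any respiratory chain gene of the nucleus, and with the value table's control ND6 differed by 0.89 and 0.62. The file places 6 of the 13 probes, ND4L and ATP8 among them, on chromosome 1 of mm9 rather than on the mitochondrial genome, so transcripts of a nuclear copy and of mitochondrial DNA cannot be told apart there.

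Of 12 measured regulators of respiratory gene transcription 4 were called lower on the RA+D3V array, 5 on the A2 array and none higher on either, with medians of -0.45 and -0.39 that were negative in all 10 settings. All lower, these calls are 33.3% and 41.7% of the list. Of all genes 15.5% and 17.0% were called lower, 17.7% and 17.2% higher, and 33.1% and 34.2% in either direction. Nrf1, which encodes that activator, had levels of 2.62 on the untreated array, 1.58 on the RA+D3V array and 1.62 on the A2 array. Tfb1m, a methyltransferase of mitochondrial ribosomal RNA, had 3.22, 2.08 and 2.36, and Gabpb1, the partner of Gabpa, 3.44, 2.62 and 2.68. Gabpa differed by -0.45 and -0.36, and Tfam, which packages mitochondrial DNA and takes part in its transcription, by -0.49 and -0.37. Myc differed by -0.64 and -1.59, the first of which was -0.25 against the value table's control. Esrra (0.32 and 0.23) and Yy1 (0.22 and 0.11) were on the other side. The coactivator Ppargc1a was at background on all arrays, and Ppargc1b differed by 0.07 and -0.18.

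Over complexes I to IV 39 of 41 assembly factors were measured, the 7 members among them. Their medians were -0.37 and -0.39, negative in all 10 settings, and 10 were called lower and none higher on the RA+D3V array, 12 lower and 4 higher on the A2 array. In either direction these are 25.6% and 41.0% of the list, beside 33.1% and 34.2% of all genes. Of all genes 15.5% and 17.0% were called lower and 17.7% and 17.2% higher. The RA+D3V calls were all lower, so their 25.6% stands beside the 15.5%. They ran both ways in complex IV, where the copper chaperones Sco1 (-0.98 and -0.87) and Sco2 (-0.88 and -0.98) and the haem A synthesis enzyme Cox10 (-0.85 and -0.70) were lower and Coa5 (0.46 and 1.05) and Cox20 (0.24 and 0.73) higher. In complex I Tmem186 (-0.66 and -0.95) and Ecsit (-0.64 and -0.60) were lower. Timmdc1 (0.20 and 0.66) was called higher on the A2 array, and its other probes turned it to -0.05 as a mean. All 4 measured complex III factors were below their untreated level, Bcs1l, which inserts the Rieske protein, by -0.68 and -0.75 Uqcc1 by -0.30 and -0.92 and Uqcc2 by -0.39 and -0.39. In complex II Acn9 differed by -0.75 and -0.97 and Sdhaf2, which attaches the flavin to Sdha, by 0.23 and 0.43. In complex V Tmem70 differed by -0.52 and -0.75, Atpif1, the inhibitor of ATP hydrolysis, by 0.66 and 0.12, and 2010107E04Rik by 0.12 and 0.28.

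Of the mitophagy and HIF-linked mitochondrial genes, 4 of 7 measured were called higher on the RA+D3V array and 5 of 7 on the A2 array, none lower, beside 17.7% and 17.2% of all genes called higher. The highest was Bnip3, another mitophagy receptor (2.83 and 3.40), and the lowest Fundc1, also a mitophagy receptor (-0.10 and 0.19). Bnip3l, its relative, had levels of 2.46 on the untreated array, 4.51 on the RA+D3V array and 5.25 on the A2 array. Pdk1, the kinase that keeps pyruvate out of the citric acid cycle, differed by 0.97 and 1.76. Both were higher on both treated arrays and highest on the A2 array. Ndufa4l2, named above as a HIF-1 target, was at background on all 3. A link of these values to HIF was not tested.

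**Figure D5:**
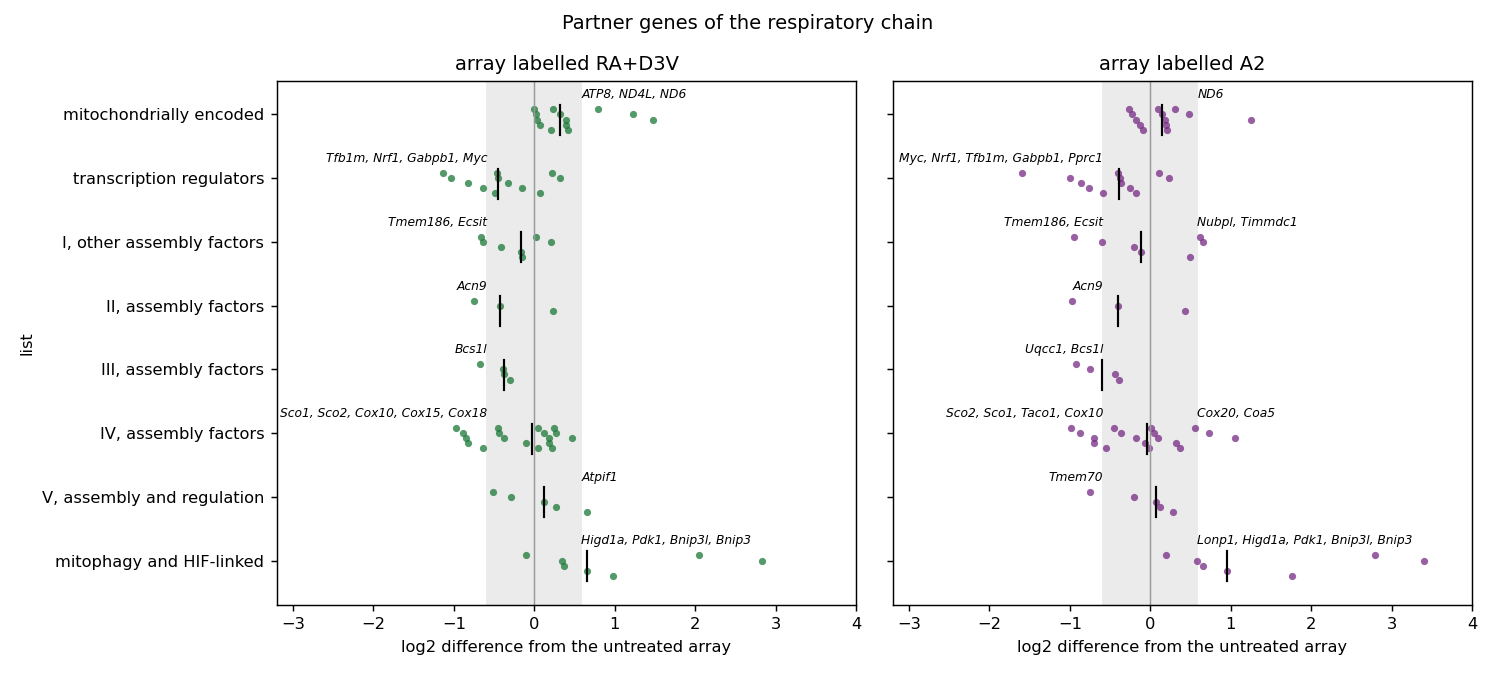
Log2 difference from the untreated array for partner genes of the respiratory chain, by list (1 point a gene, spread vertically for view), with black lines at list medians and grey bands within 1.5-fold. Genes outside the band are named from left to right above their row. The transcription regulators and the assembly factors of complexes II and III have medians between -0.59 and -0.38, and Bnip3 and Bnip3l lie farthest to the right.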

How the data were processed

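RNA of 3 cultures was measured on 1-colour arrays, 50 ng of total RNA being labelled with Cy3 per the labels' protocols. The authors' scanner output gives each spot's intensity, extracted with Agilent Feature Extraction 11.5.1.1 per the submitters' processing notes. Background and spatial trend were removed from it, but arrays were not scaled to each other, per the file headers. The deposited flags (other values, 0 or 1) mark uneven spots, saturated ones and those well above background. A value table deposited with them holds linear intensity. How it was made is not given in the sources used here.

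Levels are log2 processed signals less each array's 75th percentile over spots that are not controls, spots of a probe were averaged, and 25 uneven probes were left out, which left 55657. The brightest probe over the arrays stood for a gene. A gene counted as measured in a comparison when well above background on both arrays, and as called from 1.5-fold. No test across samples was run, since each condition has 1 array. The array number limits the precision. Members were matched to RefSeq by accession (90) or symbol (4), and 3 are now named otherwise: Atp5f1 is Atp5pb, Atp5s is Dmac2l and Atp5sl is Dmac2. The last 2 are not counted as structural subunits.

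Named are all called members, the highest and lowest of each group, set names and the ends of each partner list in the comparisons with the untreated array. The planned naming of the brightest members was dropped, because levels of different probes are not comparable. Other genes were named after their values were seen. The values of 1 gene under this rule are not reported here. Members and lists were chosen with earlier results of these data known. The 9 alternatives were normexp background correction (offset 50), median scaling over detected probes, quantile normalization, the mean of all probes, 3 other filters on dim probes, probes with G and T runs left out, and the value table with its own control. Only the calling from 1.5-fold was tried on simulated data, with known shifts and noise set from replicate spots within an array. Scaling, background correction, filters and probe choice were not part of it, and it does not cover differences between cultures. R 4.3.3, limma 3.58.1, Python 3.11.15, pandas 2.3.3 and numpy 2.4.6 were used.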

Additional observations from a re-analysis of the deposited data

Results flagged for a closer look

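Cox6b2, the testis isoform of complex IV subunit 6b, stood on opposite sides of its untreated level on the treated arrays, at 1.28 on the RA+D3V array and -1.89 on the A2 array (log2). The difference between them was -3.17. With 1 array per condition this difference was not tested, and the gene has 1 probe on the array.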

How the results depend on the processing

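No paired analysis was possible because each condition has 1 array, and for the same reason no array could be left out. Of 1895 values of 74 named genes under the alternatives, 1857 moved by less than the SD between control sources (0.271), 37 moved by more and 1 changed sign past it: Timmdc1 on the A2 array, -0.0492 with the mean of all probes against 0.66. With the value table and its own control the median of the respiratory chain genes was -0.0406 in place of 0.0691 on the RA+D3V array and -0.0281 in place of 0.0844 on the A2 array, and the members called lower on the RA+D3V array were 4 in place of 2, which turns the split of 4 higher and 2 lower into 4 and 4. On the A2 array the same control also put Ndufaf1 (-0.76) and Ndufaf2 (-0.68) past 1.5-fold lower and Cox4i2 (0.61) past 1.5-fold higher. Among brighter genes only, 1 member was lower on the RA+D3V array in place of 2 and 3 were lower on the A2 array in place of 5. With no filter on dim probes 4 were higher on the A2 array in place of 2. Those added, Ndufa4l2 and Cox8b, were at background on all arrays and passed 1.5-fold higher on the RA+D3V array as well. Between the treated arrays 1 member was higher on the A2 array, in place of 2, with normexp, with scaling to the median and among brighter genes, and 1 was lower, in place of 2, with the mean of all probes and among brighter genes. The brighter filter tests fewer genes. Elsewhere the cause was not tested. Dim isoforms lie closest to background and are the least certain.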

Other observations

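The median differences of the mitochondrial ribosome and import genes were below 0 on both treated arrays. Of 76 mitochondrial ribosomal protein genes 18 were called lower and 1 higher on the RA+D3V array, and 20 lower and 4 higher on the A2 array, with medians of -0.31 and -0.35 that were negative in all 10 settings. Of all genes 15.5% and 17.0% were called lower and 17.7% and 17.2% higher. In either direction the A2 share was 31.6%, beside 34.2% of all genes, and 19 of 76 on the RA+D3V array stand beside 33.1%. The lowest were Mrps31 on the RA+D3V array (-1.17) and Mrpl9 on the A2 array (-1.16), and the highest Mrpl41 on the RA+D3V array (1.07) and Mrps25 on the A2 array (0.78). Of 18 genes of the mitochondrial import machinery 2 and 4 were called lower and none higher, with medians of -0.31 and -0.44. These shares, 11.1% and 22.2%, lie near the 15.5% and 17.0% of all genes called lower. The small intermembrane-space chaperones Timm9 (-1.10 and -1.36) and Timm10 (-0.92 and -1.05) were the lowest, and Timm8b was the highest (0.37 and 0.30).

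Enzymes that feed the chain lay on both sides of their untreated level. Of 13 citric acid cycle genes 2 were called lower on the RA+D3V array and 3 on the A2 array, none higher, which is 15.4% and 23.1% beside 15.5% and 17.0% of all genes called lower. Idh3a, a subunit of the NAD-linked isocitrate dehydrogenase, had levels of 5.21 on the untreated array, 4.53 on the RA+D3V array and 4.21 on the A2 array, and Dld differed by -0.68 and -0.81, while Mdh2, the mitochondrial malate dehydrogenase, differed by 0.21 and 0.50. Of 15 measured genes of coenzyme Q synthesis and other electron donors 3 were called lower on each array and 1 and 2 higher, 26.7% and 33.3% in either direction beside 33.1% and 34.2% of all genes. Pdss2, which makes the side chain of coenzyme Q, differed by -1.04 and -1.40, and Adck3, a kinase-like protein needed for its synthesis, by 1.29 and 1.84.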
